A study of Mus musculus with 6 samples.

Results

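Cadherins and protocadherins are cell surface proteins built from repeated calcium-binding domains, and the genes described here are those whose symbol is Cdh followed by a number or Pcdh followed by letters or digits. The deposited table of read counts held 81 such genes, 1 for each Ensembl ID, among 20071 IDs. Poly(A) RNA was sequenced from mesenchymal stem cells (MSCs, marrow stromal cells able to become osteoblasts) of the femurs of 6-week-old C57BL/6J mice after 7 days in osteogenic medium with ascorbic acid (50 µg/mL), dexamethasone (100 nM) and β-glycerophosphate (5 mM). The 3 libraries called WT came from Pcif1fl/fl littermates, in which loxP sites flank exons 5 to 7 of Pcif1 but no Cre is carried. The 3 libraries called CKO came from Prrx1-Cre;Pcif1fl/fl mice, in which the recombinase is driven by the Prrx1 promoter in limb mesenchyme. All 6 libraries therefore share the floxed alleles, and cells outside the Prrx1 lineage keep an intact Pcif1. PCIF1 is the enzyme that methylates an adenosine next to the mRNA cap, and the comparison asks how its loss in MSCs changes their RNA.

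Classical cadherins bind the same or a related cadherin on the neighbouring cell, and their tails hold β-catenin and p120-catenin, through which α-catenin ties the junction to actin. N-cadherin (Cdh2) and cadherin-11 (Cdh11) are the classical cadherins of mesenchymal and osteoblast lineage cells. Protocadherins lack the catenin-binding tail. The solitary ones stand alone in the genome and several of their tails recruit actin regulators, whereas the clustered ones lie in alpha, beta and gamma arrays on mouse chromosome 18, where each gene has its own promoter and, in the alpha and gamma arrays, is spliced to exons common to the array.

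The libraries held between 20258209 and 28227696 counts. WT 3 stood apart from the other libraries: mitochondrial genes took 3.63% of its counts, against 1.40% to 1.57% in the other 5. It held the highest level of all 6 libraries for 27 of the 56 members that could be tested. This count was not made over all genes. The sex of the mice is not given in the sources used here. Xist was at 232 to 443 CPM (read counts scaled to the effective library size) in the WT libraries and at 0.722 to 1.79 CPM in the CKO libraries, and the Y-linked gene Ddx3y at 56.9 ± 7.46 CPM (SD, n = 3) and 101 ± 2.61 CPM (SD, n = 3), so the mix of sexes and the genotype cannot be told apart. Pcif1 itself had a log2 fold change of -0.085 (adjusted p = 0.645, edgeR quasi-likelihood test with Benjamini-Hochberg adjustment over 13733 genes), and a count per gene cannot tell deleted from retained exons. The labels give 3 libraries of each genotype, whereas the series' design text speaks of duplicates. Separate mice or cultures behind the libraries are not stated in the labels, so p-values measure the spread between these samples, which may be technical.

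Of the 81 members, 56 passed the filter on low counts and 25 did not. None of these 25 had more than 23 counts in any library, and 11 of them had 3 counts or fewer in every library, an amount worth 0.108 to 0.149 CPM. E-cadherin (Cdh1), the epithelial classical cadherin, is in the untested group with 6, 7 and 8 counts in WT and 10, 2 and 14 counts in CKO. It is named here although it lies under the level set for naming genes and was chosen after its values were seen. At the other end, 47 members had a mean of at least 1 CPM, 10 had at least 10 CPM and 2, Cdh11 and Cdh2, were at or above 100 CPM. Members together took 0.114% to 0.15% of all counts in the WT libraries and 0.0929% to 0.0968% in the CKO libraries.

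Per length, Cdh11 stood far above the rest. Its mean over the 6 libraries was 71.0 CPM per kb of exonic bases, followed by Cdh2 at 13.02, the gamma protocadherin Pcdhgc3 at 7.22 and Pcdh19 at 6.98 CPM per kb. T-cadherin (Cdh13), a cadherin held in the membrane by a lipid anchor, came next at 3.30 CPM per kb, then Pcdh18 at 3.13, Pcdh9 at 2.85, the endothelial VE-cadherin (Cdh5) at 2.52, Pcdh7 at 2.17 and Pcdh1 at 1.97 CPM per kb. In both genotypes the libraries of Cdh11, Cdh2 and Pcdhgc3 followed this order without overlap. In WT Pcdhgc3 overlapped Pcdh19 and Cdh13 overlapped Pcdh18. In CKO both pairs stood in the reverse order without overlap. The CKO means were 6.46 for Pcdhgc3 and 6.98 for Pcdh19, and 2.61 for Cdh13 and 2.92 CPM per kb for Pcdh18. Below Cdh2 the order of the means differed between WT and CKO. Pcdh9, for example, was at 2.28 against 3.35 CPM per kb for Pcdh18 in WT, and at 3.42 against 2.92 in CKO. Cdh11 alone made up 58.7%, 59.9% and 60.8% of the members' counts in WT 1 to 3 and 54.1%, 51.0% and 54.2% in CKO 1 to 3.

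**Figure D1:**
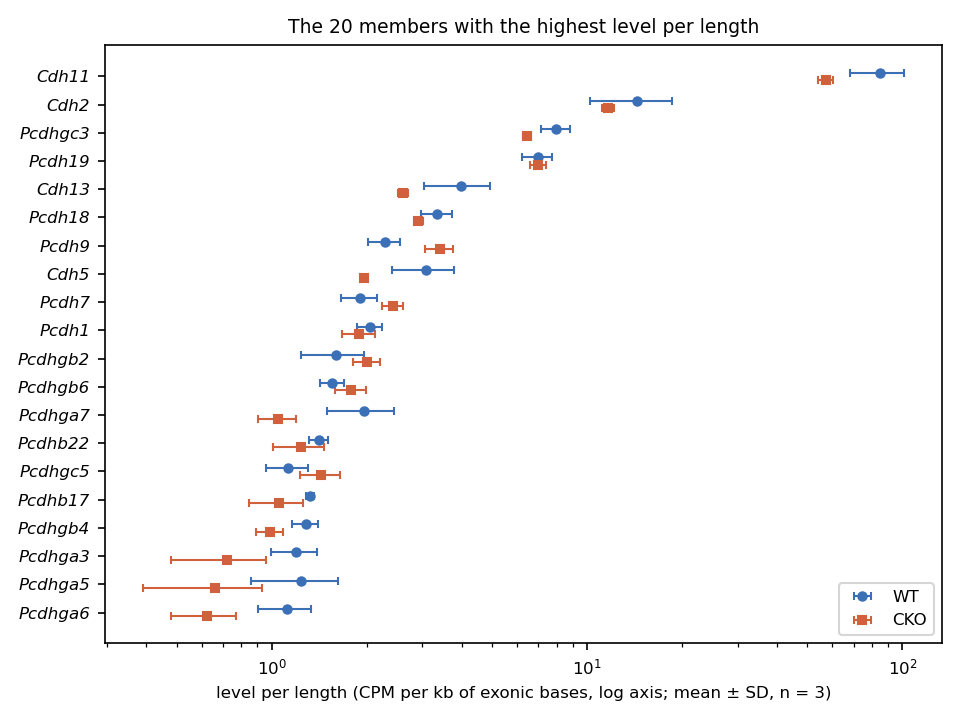
Levels of the 20 members with the highest level per length, on a log axis in CPM per kb of exonic bases, as mean ± SD of the 3 WT (circles) and 3 CKO libraries (squares). Cdh11, at a mean of 71.0 CPM per kb, sits apart from Cdh2 at 13.02 and from all others.

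Between the genotypes, 6 of the 56 members tested passed at an adjusted p-value under 0.05 (10.7%), where 7.40% of all genes tested did. Cdh11, Pcdhga7 and Pcdhb16 were lower in CKO, and Pcdh20, Cdh3 and Pcdh9 were higher. For all genes the share was 4.51% lower and 2.88% higher, so neither count of 3 is far from the background. With a log2 fold change of at least 1 in size also required, the members higher in CKO were Pcdh20 and Cdh3 (1.03% of all genes tested) and 0 were lower (2.50%), by edgeR as by DESeq2, where 3.53% of all genes passed in either direction. At an unadjusted p under 0.05, 18 of 56 members passed, where 21.3% of all genes tested did. Single libraries decided the count of lower members, which was 1 without WT 1, 2 without WT 2, 8 without WT 3 and 0 without CKO 1, CKO 2 or CKO 3, and without WT 3 the higher members numbered 5. The calls over all genes moved with them: lower genes were 10.4% and higher genes 11.1% of those tested without WT 3, and lower genes were 2.32% to 3.49% without any 1 of the other libraries. Values of the other members did not pass in this fit.

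Most members leaned the same way without passing. The log2 fold change was below 0 in 44 of 56 members (78.6%), against 49.7% of all genes tested, and the median was -0.30 against 0.0017 for all genes. In 18 members every CKO library was below every WT library and in 6 every CKO library was above, where 15.7% and 15.0% of all genes tested separated in these ways (30.8% in either). The lean was smaller without WT 3: 40 of 56 members were then below 0, and their median was -0.17, against 0.00089 for all genes.

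**Figure D2:**
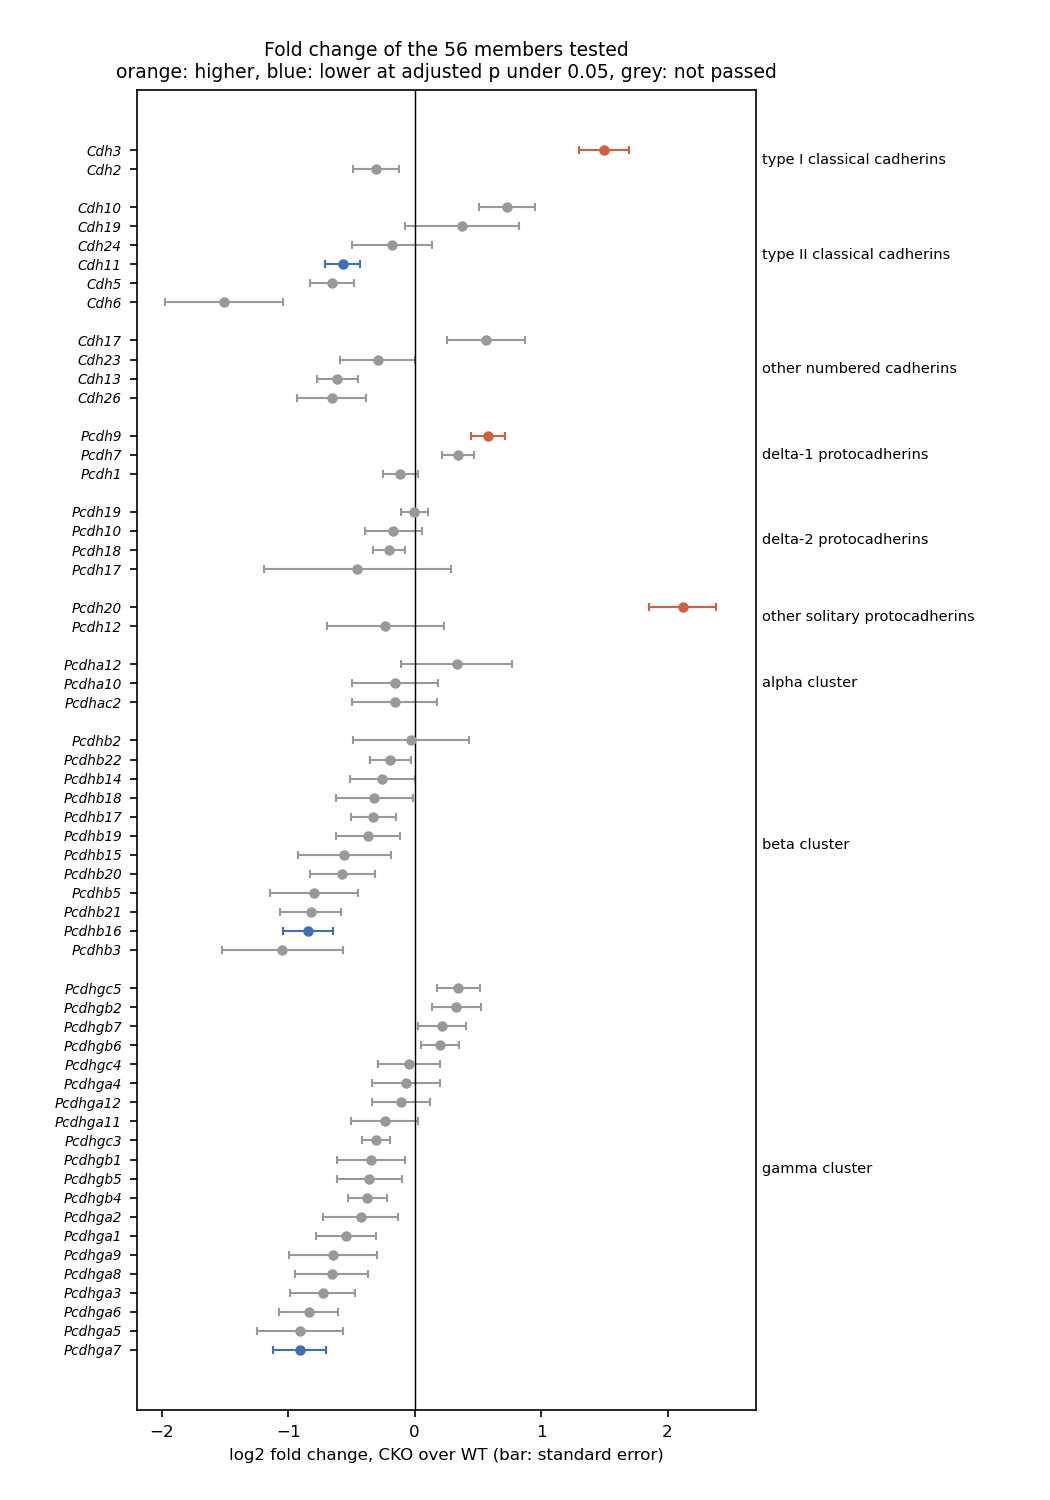
Log2 fold change, CKO over WT, of each of the 56 members tested, grouped by class, with its standard error as a bar. Orange marks the 3 members that passed as higher, blue the 3 that passed as lower and grey the rest, and 44 of 56 points lie left of 0.

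Among the type II classical cadherins, Cdh11 (ENSMUSG00000031673, chromosome 8, 102632095 to 102785642, minus strand, GRCm38) was at 678, 664 and 923 CPM in WT 1 to 3 and at 524, 478 and 526 CPM in CKO 1 to 3. Each CKO library was below each WT library, and WT 3 was well above the other WT libraries. The mean was 755 ± 146 CPM in WT and 509 ± 26.9 CPM in CKO (SD, n = 3 each). The log2 fold change was -0.57 with a standard error of 0.14 (adjusted p = 0.0435, edgeR quasi-likelihood test). Leaving out WT 3 gave a log2 fold change of -0.39 that still passed, whereas leaving out WT 2, CKO 1, CKO 2 or CKO 3 gave -0.65, -0.58, -0.52 and -0.59 with adjusted p-values of 0.0581, 0.16, 0.175 and 0.149. In bulk RNA, fewer cells of a type and less RNA per cell cannot be told apart. The list of 10 osteolineage and mesenchymal markers, to which Cdh11 and Cdh2 belong, held 2 lower genes (Cdh11 and Pdgfra) and 4 higher ones (Col1a1, Col1a2, Vim and Thy1), where 4.51% and 2.88% of all genes tested were, and its summed level was 9770 to 12300 CPM in WT and 15500 to 16300 CPM in CKO. Prrx1, whose promoter drives the Cre, had a log2 fold change of 0.25 (adjusted p = 0.303, edgeR). The 10 macrophage markers summed to 31400 to 34800 CPM in WT and 32200 to 35400 CPM in CKO, with 0 passing in edgeR (2 at an unadjusted p under 0.05) and 1, Itgam, with DESeq2, so macrophage RNA was abundant in every library and its share in the level of any member was not tested.

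The next type II cadherin by level was Cdh5 (chromosome 8, 104101625 to 104144511), which joins endothelial cells and starts 1.316 Mb beyond the end of Cdh11. Its level was 12.4, 10.4 and 16.1 CPM in WT and 8.24, 8.41 and 8.08 CPM in CKO, without overlap, with a log2 fold change of -0.66 (SE, the standard error, 0.18) that missed the threshold (adjusted p = 0.0618, edgeR). Without WT 3 it was -0.46 (adjusted p = 0.0201, edgeR), and it also passed without WT 2 (-0.79, adjusted p = 0.0485) and with DESeq2 (adjusted p = 0.0213). The 10 endothelial markers summed to 34.5 to 47.0 CPM in WT and 32.2 to 36.6 CPM in CKO, none of them passed in edgeR (2 at an unadjusted p under 0.05) and Cdh5 alone with DESeq2, and the groups overlapped for Pecam1 (7.38, 4.96 and 9.07 CPM against 5.58, 5.33 and 4.47 CPM). Vwf, another of these markers, leaned the other way without overlap, at 6.51, 7.65 and 7.42 CPM in WT and 11.4, 8.21 and 12.5 CPM in CKO (log2 fold change 0.57, adjusted p = 0.105, edgeR). Cdh10, known from neurons, leaned the other way, at 2.66, 2.02 and 2.01 CPM in WT and 4.14, 2.99 and 3.95 CPM in CKO (log2 fold change 0.73, adjusted p = 0.0911, edgeR). Cdh24 was at most at 2.02 CPM in any library and its groups overlapped. Cdh6 had the most negative value of all members tested, -1.51 (adjusted p = 0.098, edgeR), on counts of 19, 14 and 13 in WT and 4, 3 and 6 in CKO, and passed without WT 3 (-1.66, adjusted p = 0.0486). It too was chosen after its values were seen.

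Of the type I classical cadherins, Cdh2 and P-cadherin (Cdh3) were tested, and they differed in call. Cdh2, on chromosome 18 from 16588877 to 16809246, was at 100, 93.5 and 155 CPM in WT 1 to 3 and at 96.01, 96.6 and 89.3 CPM in CKO 1 to 3. The groups overlapped, WT 3 being the only library apart from the other 5, and the log2 fold change was -0.31 (SE 0.18, adjusted p = 0.385, edgeR). Without WT 3 it was -0.039. The ratio of Cdh11 to Cdh2 counts, for which library scaling cancels, was 6.77, 7.11 and 5.96 in WT and 5.45, 4.95 and 5.89 in CKO, lower in every CKO library than in any WT library, by a small margin between WT 3 and CKO 3. With 3 libraries against 3 an exact permutation test of such a ratio cannot go below a p of 0.1.

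Cdh3 (ENSMUSG00000061048, chromosome 8, 106510891 to 106557297, plus strand) rose. It encodes a cadherin best known from basal epithelial cells and placenta. Its level was 1.83, 1.69 and 2.44 CPM in WT and 5.81, 5.67 and 5.44 CPM in CKO, so the libraries within a genotype lay close together and the genotypes were well apart. The mean was 1.99 ± 0.40 CPM in WT and 5.64 ± 0.19 CPM in CKO (SD, n = 3 each). The log2 fold change was 1.5 with a standard error of 0.20 (adjusted p = 0.00268, edgeR), and it passed under every alternative run. Cdh1, which starts 46.05 kb beyond the end of Cdh3, stayed at 14 counts or fewer in every library. Of the 8 epithelial markers listed, Epcam, Krt18 and Grhl2 were not analysed here, and Krt8, Cldn4 and Esrp1 had 3 counts or fewer in every library. The 5 in the table summed to 0.772 to 1.31 CPM in WT and 1.71 to 2.99 CPM in CKO. Most of this was Krt19, with a log2 fold change of 1.58 (adjusted p = 0.0557, edgeR), which passed as higher with DESeq2. The part of epithelial RNA in the level of Cdh3 was not tested.

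**Figure D3:**
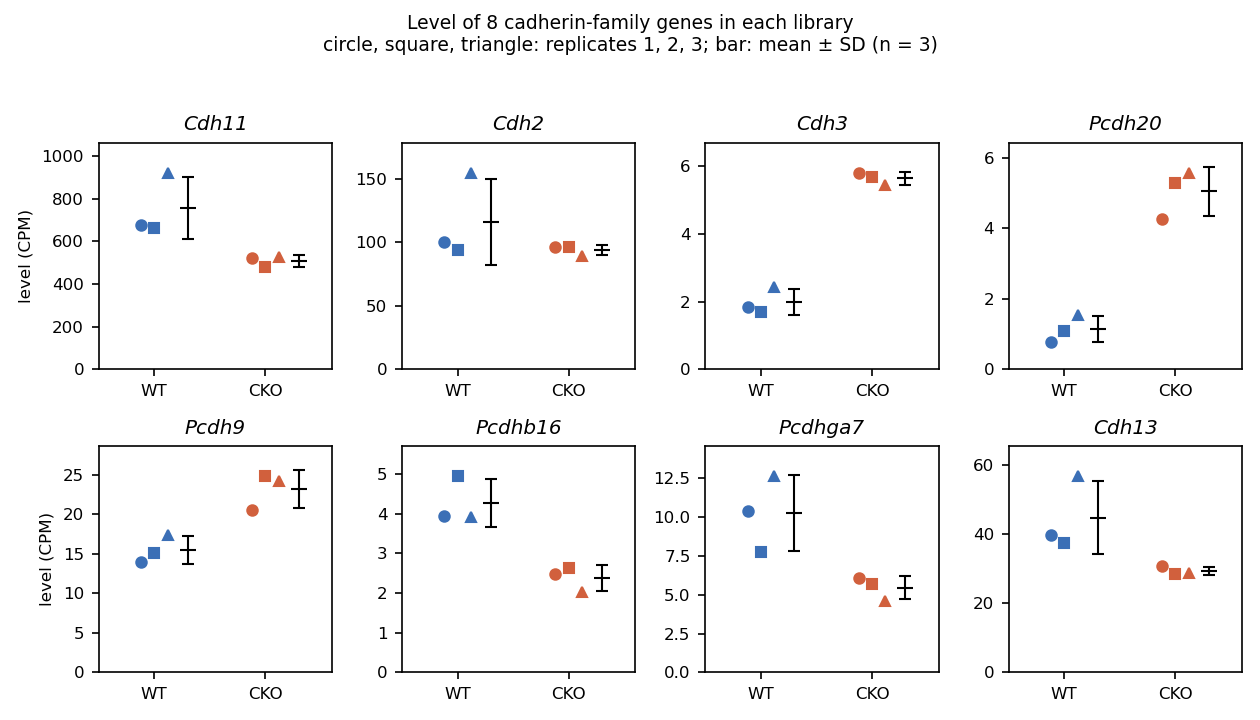
Level in CPM of 8 members in each library, with replicates 1, 2 and 3 as circle, square and triangle and the mean ± SD (n = 3) as a bar, on axes that start at 0. For Cdh3 and Pcdh20 the CKO libraries lie far above the WT libraries, and for Cdh11, Cdh2 and Cdh13 WT 3 is the highest point.

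Among the other numbered cadherins none of the 4 tested passed in edgeR (7.40% of all genes did), with 2 at an unadjusted p under 0.05 (21.3% of all genes), and 1, Cdh13, passed as lower with DESeq2 (adjusted p = 0.0141), where 5.26% of the genes DESeq2 tested were lower. Cdh13 (chromosome 8, 118283733 to 119324921) came nearest, with 39.9, 37.6 and 56.9 CPM in WT and 30.7, 28.5 and 28.8 CPM in CKO. The groups did not overlap, and the log2 fold change was -0.61 (SE 0.16, adjusted p = 0.0591, edgeR). Without WT 3 it was smaller, -0.40, and passed (adjusted p = 0.00238). Cdh26 (-0.66, adjusted p = 0.214), Cdh23 of hair cell tip links (-0.29, adjusted p = 0.615) and the intestinal cadherin Cdh17 (0.56, adjusted p = 0.345) were between 0.945 and 3.19 CPM in each library. With 1 library left out, Cdh23 ran from -0.52 to -0.13 and Cdh17 from 0.36 to 0.83.

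Of the 9 solitary protocadherins tested, 2 passed as higher and 0 as lower, by edgeR as by DESeq2, where 2.88% and 4.51% of all genes tested did (3 of the 9 were at an unadjusted p under 0.05). Because PCIF1 acts on the base at the start of a transcript, annotated start sites were taken from RefSeq's table for GRCm38.p6. Members on the chromosome that carries the clustered arrays, Pcdh1 among them, were left out of this search. Starts are shown for the other named solitary protocadherins that the table holds. They are in lower case with the annotated first transcribed base in capitals, preceded by 20 bases and followed by 9:
Pcdh20, chr14:88471387-88471416, minus strand: ggaatttgttggcaaagcctGgttttgtgg
Pcdh9, chr14:93890670-93890699, minus strand: tatatcaagaaattcagttcAgagagagga
Pcdh9, other start, chr14:93890660-93890689, minus strand: aattcagttcagagagaggaGagagaggag
Pcdh7, chr5:57718061-57718090, plus strand: tgaatcgcgcacagcgctgcAgatcccact
Pcdh10, chr3:45378378-45378407, plus strand: aaacagagaagcggagcgctCggagctcag
Pcdh18, chr3:49757307-49757336, minus strand: cgattcaacacacgccaggcAaagagcttt
Pcdh19, chrX:133688984-133689013, minus strand: tccggctctctccagactctGtggccagta
The members left out number 55 of the 81. Among the rest the table matched 16 members with 17 starts, of which 7 begin with A. Of all 32851 starts in the table, with no chromosome left out, 34.4% do. The higher gene Pcdh20 is annotated to start with G, and Pcdh9 has 1 start at A and 1 at G. Annotated starts are not measured starts in these cells, and a start at A does not show that the RNA was methylated.

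Pcdh20 (ENSMUSG00000050505, chromosome 14, 88464743 to 88471396, minus strand) showed the largest positive log2 fold change of the members tested. It is a protocadherin known mainly from the nervous system. Its level was 0.786, 1.103 and 1.54 CPM in WT 1 to 3 and 4.28, 5.28 and 5.58 CPM in CKO 1 to 3. The lowest CKO library was far above the highest WT library, and the means were 1.14 ± 0.38 CPM in WT and 5.04 ± 0.68 CPM in CKO (SD, n = 3 each). The log2 fold change was 2.12 (SE 0.27, adjusted p = 0.00222, edgeR) and lay between 1.93 and 2.40 under the alternatives, all of which it passed. Among all 13733 genes Pcdh20 ranked 213 and Cdh3 ranked 241 by p-value.

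Pcdh9 (chromosome 14, 93013410 to 93890679, minus strand), a delta-1 protocadherin, lies 4.542 Mb beyond Pcdh20. Its level was 13.9, 15.1 and 17.4 CPM in WT and 20.5, 24.9 and 24.2 CPM in CKO, without overlap. The log2 fold change was 0.58 (SE 0.13, adjusted p = 0.0367, edgeR), and leaving out any library other than WT 3 took the adjusted p to between 0.0701 and 0.161. Pcdh7, the other delta-1 member with a positive value, was at 18.9, 18.6 and 23.3 CPM in WT and 23.9, 25.4 and 27.7 CPM in CKO. These groups just failed to overlap, the log2 fold change was 0.34 (SE 0.13, adjusted p = 0.169, edgeR), and without WT 3 it was 0.46 (adjusted p = 0.00334). An antisense gene, 4932441J04Rik, overlaps 21.1% of the exonic bases of Pcdh7. Pcdh1 overlapped between the genotypes, with a log2 fold change of -0.11. The neuronal markers summed to 4.41 to 6.33 CPM in WT and 9.56 to 10.6 CPM in CKO, mostly Tubb3, which passed as higher. Stmn2, the other neuronal marker tested, was at 0.743, 1.07 and 1.00 CPM in WT and 0.540, 0.647 and 0.385 CPM in CKO (log2 fold change -0.84, adjusted p = 0.197, edgeR), while Snap25, Syt1 and Rbfox3 had 3 counts or fewer in every library.

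The delta-2 protocadherins, whose tails carry a WAVE-binding motif, showed no member past the threshold in edgeR, DESeq2 or limma-voom, with 0 also at an unadjusted p under 0.05, and all 4 overlapped between genotypes. Pcdh19 on the X chromosome was at 72.1, 65.6 and 81.6 CPM in WT and 70.1, 77.9 and 71.1 CPM in CKO, a log2 fold change of -0.0024 (SE 0.11, adjusted p = 0.993, edgeR) whose sign changed with the scaling. Pcdh18 was at 15.9, 17.97 and 20.01 CPM in WT and 15.0, 15.9 and 16.0 CPM in CKO (-0.20, adjusted p = 0.413). Pcdh10 was between 1.85 and 2.69 CPM in all libraries (-0.17, adjusted p = 0.719). Leaving out 1 library gave -0.28 to -0.11 for Pcdh18 and -0.36 to -0.063 for Pcdh10.

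The clustered protocadherins made up 52 of the 81 members, with 11 alpha, 21 beta and 20 gamma genes, and 35 were tested. The log2 fold change was below 0 in 30 of these 35, with a median of -0.35, and 2 passed, both lower (5.71%, where 4.51% of all genes tested were lower). Summed over each cluster, the alpha genes were at 2.67 ± 0.57 CPM in WT and 2.56 ± 0.25 CPM in CKO (SD, n = 3), so this array was hardly counted. The beta genes summed to 35.6, 38.0 and 38.7 CPM in WT and 27.4, 28.1 and 26.1 CPM in CKO, a log2 ratio of the means of -0.46, and the gamma genes to 128, 113 and 146 CPM and 110, 107 and 107 CPM, a log2 ratio of -0.26. In both arrays every CKO library was below every WT library. In the beta sum WT 3 lay close to WT 2, whereas in the gamma sum it was the highest library. Without WT 3 the log2 ratio was -0.44 for the beta sum and -0.16 for the gamma sum.

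In the beta array each gene is a single exon of its own, and same-strand overlap with other genes was 0 but for Pcdhb21 and Pcdhb22, at 9.67% and 6.88% of exonic bases. All 12 beta genes tested had a log2 fold change below 0, with a median of -0.46 and a range from -1.05 to -0.031, and 5 of them separated the genotypes (15.7% of all genes tested did so in this direction). Without WT 3, 13 beta genes were tested and all 13 were below 0, with a median of -0.35. Among the fits with 1 library left out, those without WT 2 or CKO 1 each had 1 beta gene above 0. Pcdhb16 (chromosome 18, 37477814 to 37483038) passed: it was at 3.93, 4.96 and 3.91 CPM in WT and 2.48, 2.64 and 2.02 CPM in CKO, with a log2 fold change of -0.84 (SE 0.20, adjusted p = 0.0408, edgeR). Leaving out any library except WT 3 took its adjusted p to between 0.0715 and 0.176. Pcdhb21 was at 1.75, 1.95 and 1.94 CPM against 1.17, 1.095 and 0.914 CPM (-0.82, adjusted p = 0.0821). The most abundant beta genes, Pcdhb22 and Pcdhb17, had smaller values of -0.19 (adjusted p = 0.559) and -0.33 (adjusted p = 0.341). These ran from -0.34 to -0.076 and from -0.48 to -0.20 with 1 library left out. Pcdhb5 and Pcdhb20 were at -0.80 and -0.57, and Pcdhb14, Pcdhb18 and Pcdhb19 between -0.37 and -0.26. Single libraries moved the last 3: leaving 1 out gave -0.46 to -0.097 for Pcdhb14, -0.58 to -0.11 for Pcdhb18 and -0.51 to -0.092 for Pcdhb19. The 9 beta genes not tested stood together along the array, apart from Pcdhb4, from Pcdhb6 to Pcdhb13.

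In the gamma array all 20 genes were tested, and 16 were below 0 with a median of -0.35, against 13 of 20 and -0.19 without WT 3. They share their last exons, so that 31.5% to 66.8% of the exonic bases of each overlap other genes on the same strand, and how reads in those exons were assigned is not given in the sources used here. By name the genes fall into A, B and C types. The 11 A-type genes, each with a log2 fold change below 0, had a median of -0.64, and 6 of them were lower in every CKO library (15.7% of all genes tested were). Their summed level was 42.2, 35.1 and 49.7 CPM in WT and 26.9, 27.4 and 26.3 CPM in CKO (log2 ratio of the means -0.66). Without WT 3, 9 of 11 were below 0 and the median was -0.35, and without WT 2 or CKO 1, 10 of 11 were below 0. The 6 B-type genes split 3 and 3 in sign, and their sum was 31.3, 29.3 and 36.4 CPM in WT and 33.9, 32.5 and 32.0 CPM in CKO (log2 ratio 0.019, or -0.047 without WT 2 and 0.11 without WT 3). The difference between the A and B types was not tested.

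Pcdhga7 (chromosome 18, 37714764 to 37841873) was the gamma gene that passed, at 10.4, 7.76 and 12.7 CPM in WT and 6.08, 5.67 and 4.62 CPM in CKO. Its log2 fold change was -0.91 (SE 0.21, adjusted p = 0.0358, edgeR), with 40.6% of its exonic bases shared on the same strand. Leaving out WT 1 or any CKO library took its adjusted p to between 0.083 and 0.158. Its neighbours Pcdhga5 and Pcdhga6 had log2 fold changes of -0.91 (adjusted p = 0.169) and -0.84 (adjusted p = 0.0694), with Pcdhga6 at 6.33, 5.18 and 4.34 CPM in WT and 2.25, 3.63 and 2.98 CPM in CKO. Pcdhga6 passed with DESeq2 (adjusted p = 0.0303), with no expression filter (adjusted p = 0.045) and without WT 3 (-0.96, adjusted p = 0.00481). Pcdhga3 was at -0.73, Pcdhga8 at -0.66, Pcdhga9 at -0.64, Pcdhga1 at -0.54, Pcdhga2 at -0.43, Pcdhga11 at -0.23, Pcdhga12 at -0.11 and Pcdhga4 at -0.068, all short of the threshold. Of the B type, Pcdhgb2 (0.33), Pcdhgb7 (0.22) and Pcdhgb6 (0.20) lay above 0, and Pcdhgb4 (-0.37), Pcdhgb5 (-0.36) and Pcdhgb1 (-0.35) below. Single libraries moved several of these values by more than 1.5 times: without WT 3 Pcdhga9 was at -0.22, Pcdhga8 at -0.35, Pcdhgb5 at -0.11 and Pcdhgb1 at -0.10, without WT 2 Pcdhgb2 was at 0.15, and without CKO 3 Pcdhgb7 was at 0.079. Over all fits with 1 library left out, Pcdhga11 ran from -0.38 to -0.077, Pcdhga2 from -0.67 to -0.24 and Pcdhga5 from -1.13 to -0.60.

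**Figure D4:**
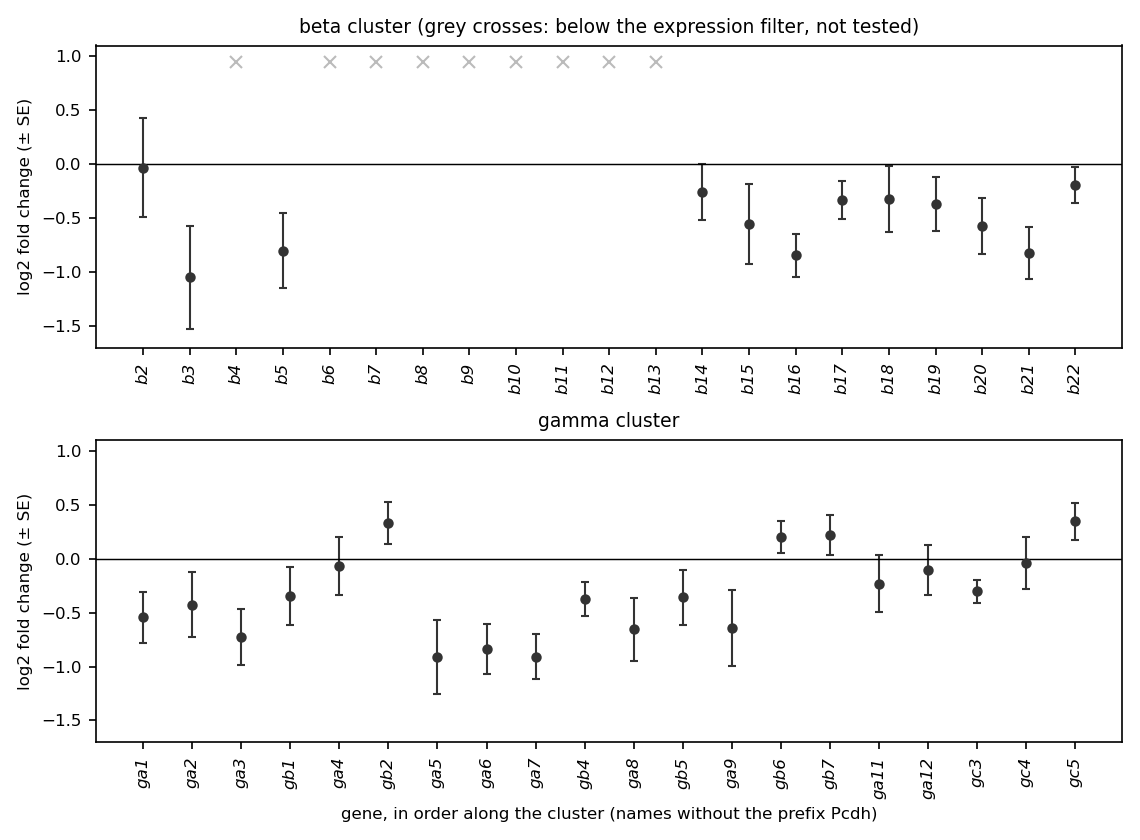
Log2 fold change (CKO over WT) with its standard error for the beta and gamma protocadherins in their order along the arrays, with grey crosses for beta genes not tested. All 12 beta points lie below 0, and in the gamma array A-type genes lie below 0 while B-type genes lie on both sides.

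The 3 C-type genes lie at the end of the array. Of these Pcdhgc3, the most abundant of all clustered genes, was at 45.3, 38.6 and 47.8 CPM in WT and 34.5, 35.4 and 36.6 CPM in CKO. The groups did not overlap, and the log2 fold change was -0.30 (SE 0.11, adjusted p = 0.15, edgeR). Antisense gene BC037039 overlaps 28.4% of its exonic bases. Pcdhgc5 had the most positive value of the array, 0.35 (adjusted p = 0.292), which passed without WT 3 at 0.47 (adjusted p = 0.0354), and Pcdhgc4 was at -0.042. Among the alpha genes only Pcdhac2 reached a mean of 1 CPM, with a log2 fold change of -0.16 (adjusted p = 0.826). It ran from -0.39 to -0.0031 with 1 library left out.

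**Figure D5:**
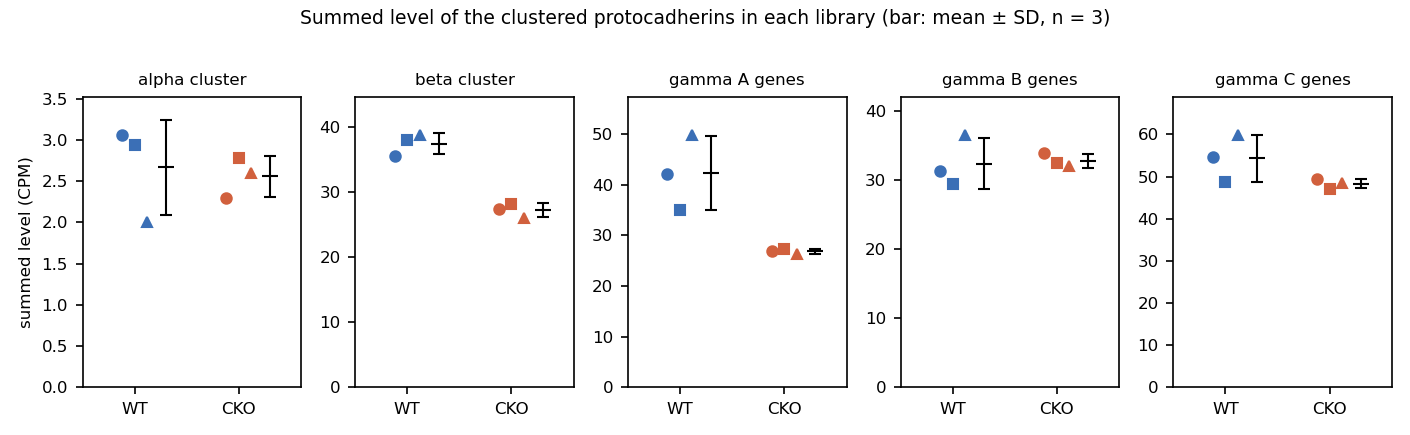
Summed level in CPM of the alpha and beta clusters and of the A, B and C types of the gamma cluster in each library, with replicates 1, 2 and 3 as circle, square and triangle and mean ± SD (n = 3) as a bar. The CKO libraries lie below the WT libraries for the beta cluster (26.1 to 28.1 against 35.6 to 38.7 CPM) and the gamma A type, and overlap them for the alpha cluster and the gamma B type.

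The genes that act with cadherins were followed in 7 lists with 85 genes in the table, of which 69 were tested, 3 passed as lower and 3 as higher (8.70%, against 7.40% of all genes). In the list of catenins and adherens junction linkers (15 tested), the core components did not pass. β-catenin (Ctnnb1) was at 554, 544 and 451 CPM in WT and 576, 551 and 571 CPM in CKO (log2 fold change 0.13, adjusted p = 0.516, edgeR), α-catenin (Ctnna1) had 0.073 (adjusted p = 0.693), p120-catenin (Ctnnd1), of whose exonic bases 61.2% overlap the same-strand gene Gm28635, -0.11 (adjusted p = 0.6) and plakoglobin (Jup) -0.35 (adjusted p = 0.12). Jup was lower in every CKO library and passed without WT 3 at -0.27 (adjusted p = 0.0493). In fits with 1 library left out, Ctnnb1 ran from 0.047 to 0.19, Ctnna1 from 0.029 to 0.14 and Ctnnd1 from -0.16 to -0.055. Passing in this list were Camsap3, which anchors microtubule minus ends and can do so at junctions, at -1.61 on 5 to 41 counts (adjusted p = 0.0347), and Ctnnal1, an α-catenin relative, which rose from 11.4 ± 0.34 CPM to 17.7 ± 1.81 CPM (SD, n = 3; log2 fold change 0.63, adjusted p = 0.0192). Leaving out any library except WT 3 took the adjusted p of Camsap3 to between 0.0621 and 0.154, and that of Ctnnal1 was between 0.0571 and 0.116 without WT 1, WT 2, CKO 1 or CKO 3.

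Among other members of the cadherin superfamily (9 tested), the giant cadherin Fat4, a receptor of planar cell polarity and growth control, fell from 110, 94.97 and 135 CPM to 54.9, 53.4 and 57.7 CPM. Its log2 fold change of -1.03 (SE 0.13, adjusted p = 0.00245, edgeR) passed under every alternative. Cdhr1 rose from 4.06 ± 0.40 CPM to 6.23 ± 0.048 CPM (SD, n = 3; log2 fold change 0.61, adjusted p = 0.0478), but leaving out any library except WT 3 gave adjusted p-values of 0.111 to 0.173. Of the 5 repressors of cadherin genes tested, Snai2, which binds E-boxes in the E-cadherin promoter, was at 40.8, 41.0 and 70.9 CPM in WT and 22.6, 22.2 and 22.1 CPM in CKO (log2 fold change -1.19, adjusted p = 0.0121, edgeR). Without 1 of the CKO libraries its adjusted p was 0.0612 to 0.0688. Its core motif, CAGGTG on either strand, was sought in RefSeq's windows of 250 bases before to 50 after a start. Members on chromosome 18 were left out of this search. The motif occurred for 2 of the 16 members matched, Pcdh7 and, chosen after its values were seen, the untested Pcdh15. Of all windows, with no chromosome left out, 20.2% hold it.

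The remaining lists held 1 passing gene. In the WAVE complex, an actin nucleation regulator that delta-2 tails bind, 11 were tested and Abi3 was higher (1.26, adjusted p = 0.0131, edgeR), from 1.80 ± 0.28 CPM to 4.33 ± 0.89 CPM (SD, n = 3). Its adjusted p was 0.0605, 0.0555 and 0.0596 without WT 2, CKO 1 and CKO 2, and antisense genes overlap 75.8% of its exonic bases. None of the 4 nectins, 11 cadherin proteases and 14 regulators of the clustered locus tested passed in edgeR. At an unadjusted p under 0.05 there were 2, 2 and 1 of them, and with DESeq2 Nectin2 and Nectin3 passed. DESeq2 also called Cyfip1 of the WAVE complex and Twist1 of the repressors higher, which edgeR did not (adjusted p = 0.067 and 0.0711). The median log2 fold change of the locus regulators was -0.11.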

How the data were processed

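MSC poly(A) RNA was sequenced in 3 WT and 3 CKO libraries, grouped by their labels. The authors mapped paired 150-base reads to mm10 with HISAT2 and deposited raw counts per gene. The counting tool, annotation and use of strand are not given in the sources used here. Of 20163 rows, 92 repeated an ID with the same counts, leaving 20071 IDs. Counts were fitted with edgeR 4.0.16 under R 4.3.3 (filterByExpr, TMM, quasi-likelihood test, no covariate), with Benjamini-Hochberg adjustment over 13733 genes. Standard errors are the log2 fold change over the square root of F. CPM use TMM-scaled library sizes, and levels per length use exonic bases of GENCODE M21. Library totals of 20258209 to 28227696 counts limit the precision of members with few counts. SDs and standard errors include the spread between libraries, whereas the floor of 3 counts does not. Cell type markers were summed as CPM. Members passing, members with a mean of at least 1 CPM, Cdh2, Cdh11, passing companion genes, 4 catenins and Pcif1 are named. Single marker genes given beside them were chosen after their values were seen. The members, lists and rules were chosen with earlier results of these data known. Alternatives were DESeq2 1.42.0, RLE and total-count scaling, limma-voom (limma 3.58.1), other filters, a replicate block, every deposited row, a fold threshold, and each library left out.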

Additional observations from a re-analysis of the deposited data

How the results depend on the processing

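Cdh3, Pcdh20 and Fat4 passed under every alternative, and the members' median log2 fold change stayed below 0, from -0.34 to -0.17. Members passing as lower numbered 3, but 6 with DESeq2 and without an expression filter, 5 with total-count scaling, 1 with limma-voom (Cdh11) and 0 with the fold threshold, which left 343 lower and 142 higher genes in all. In these first 4 fits the lower members were 8.96%, 7.41%, 8.93% and 1.79% of those tested. Of all genes tested 5.26%, 3.55%, 5.11% and 4.2% were lower. Leaving out 1 library gave 0 to 8 lower and 2 to 5 higher members, 1 to 8 lower and 0 to 13 higher companion genes, and 324 to 1447 lower and 148 to 1544 higher genes in all. The highest counts were those without WT 3, and the 0 lower members were those without CKO 1, CKO 2 or CKO 3, a difference whose cause was not tested. DESeq2 called 6 companion genes higher. Same-numbered libraries of the 2 genotypes deviated with correlations of 0.0701, -0.0552 and 0.00265. These show no pairing by number, but with 3 libraries of each genotype they cannot exclude it. A replicate block gave 1 lower and 2 higher members and 1 higher companion gene. Of all genes, 3.66% were then lower and 1.94% higher. The sign of Pcdh19 turned with DESeq2 (0.0020), RLE factors (0.0010), limma-voom (0.0012) and the replicate block (0.0018), and with libraries left out (-0.074 to 0.088). Leaving out libraries also turned the sign of Pcdhgc4 (-0.15 to 0.11), Pcdhga4 (-0.22 to 0.064), Pcdhga12 (-0.27 to 0.040) and Cdh24 (-0.50 to 0.0021), and the cause was not tested.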

Other observations

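Marker lists of other cell types not named above gave these summed levels and calls by edgeR, where 4.51% of all genes tested were lower and 2.88% higher. Skeletal muscle markers, among them the satellite cell cadherin Cdh15 at 3 counts or fewer in every library, summed to 2.35 to 3.54 CPM in WT and 1.15 to 1.94 CPM in CKO, with 0 of 2 tested passing by edgeR or DESeq2 and 2 at an unadjusted p under 0.05 by edgeR. Schwann cell and glial markers, to which Cdh19 belongs, summed to 79.3 to 93.7 CPM and 65.8 to 82.2 CPM, most of it Mbp, and 1 of 5 tested passed, S100b, which was lower (log2 fold change -1.45, adjusted p = 0.00126). Smooth muscle markers summed to 594 to 758 CPM and 625 to 653 CPM. By edgeR 0 of 8 passed, with 3 at an unadjusted p under 0.05, and DESeq2 called Actg2, Cnn1 and Lmod1 lower. Neutrophil markers summed to 1.00 to 1.14 CPM and 1.30 to 1.98 CPM, and 1 of 2 tested passed, S100a8, which was higher (log2 fold change 1.46, adjusted p = 0.0394). Chondrocyte markers summed to 41.5 to 54.1 CPM and 33.9 to 40.7 CPM, with Comp and Col10a1 of 4 tested passing as lower. Col2a1 was higher in every CKO library, at 11.3, 8.23 and 6.38 CPM in WT and 11.7, 16.1 and 13.9 CPM in CKO (log2 fold change 0.69, adjusted p = 0.111), and passed as higher with DESeq2.

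Adipocyte markers summed to 476 to 573 CPM and 426 to 614 CPM, but most of this was the lipase Lpl, at 357 ± 55.3 CPM in WT and 419 ± 85.1 CPM in CKO (SD, n = 3 each), which did not pass. Adipoq, Plin1, Cfd, Cidec and Pparg, 5 of the 7 tested, passed as lower. Fabp4, a fatty acid carrier, was higher in every CKO library, at 70.6, 78.8 and 66.3 CPM in WT and 103, 85.3 and 107 CPM in CKO (log2 fold change 0.46, adjusted p = 0.0545), and passed as higher with DESeq2. Adipoq, the adipocyte hormone adiponectin, was at 47.0 ± 5.96 CPM in WT and 0.824 ± 0.608 CPM in CKO (SD, n = 3 each). The lipid droplet gene Plin1 had 69, 59 and 115 counts in WT and Cfd, or adipsin, had 35, 53 and 33, and both had 0 counts in every CKO library. Their part, and that of the lists above, in the levels of the cadherins was not tested.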
